A study of Mus musculus with 4 samples.

Results

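The HoxA gene cluster on mouse chromosome 6 carried 10 binding sites of CTCF, of 42163 in the whole conservative peak list. They are the peaks whose summit, the base of highest signal, lay in chr6:52105590-52310880 of the mm10 build. This window holds the 10 Hoxa genes considered here (Hoxa2 to Hoxa7, Hoxa9 to Hoxa11 and Hoxa13) with flanking sequence. CTCF was mapped by chromatin immunoprecipitation and sequencing in frozen gastrocnemius, the large calf muscle, of female B6CASTF1/J mice, a first-generation hybrid, at 2 months of age. The 4 libraries form pool E and pool F, each made from 2 tissue samples and sequenced as 2 technical replicates, and all were untreated. The deposited lists merge the technical replicates of a pool, which leaves the values without replicate spread: no test between the pools is possible, and the alleles of the hybrid are not told apart. The lists hold no expression values, so the tissue label was not checked against marker genes; 8 of the 10 sites lie within the span of the listed genes and 2 beyond Hoxa13. Peak strength is the authors' own score, whose scale was not stated, and in whole muscle a site bound in fewer cells cannot be told apart from one bound more weakly in each cell.

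Hox genes encode homeodomain transcription factors that give cells their position along the body axis and the limbs, and their order on the chromosome follows the order of the body regions in which they act. All of the listed Hoxa genes are transcribed from the minus strand, so Hoxa13, the most posterior, lies at the highest coordinate. CTCF recognises a long, directional DNA motif through its zinc fingers and anchors chromatin loops together with cohesin. In mouse cells that differentiate into motor neurons, CTCF sites around Hoxa5, Hoxa6 and Hoxa7 are known to separate active from Polycomb-repressed Hox genes.

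The DNA under the sites shows which of them carry a recognisable CTCF motif and which way it points. Each line gives 30 bases of mm10 around the best match to the CTCF consensus within 50 bp of the summit, read 5′ to 3′ on the strand of the motif, with the 14 bases of the match in capitals. The sites run from the Hoxa2 side to the Hoxa13 side, and the best match at the Hoxa10 exon site exceeded 3 mismatches.
Hoxa4-Hoxa5 site: aggaatcgCCAGCAGAGCTCGCtttagtac
Hoxa5 start site: cccagtctCCAGCGGGTGGCGCtcgagtcc
Hoxa6-Hoxa7 site: ggcgacggCCACAGCGTGGCAGcagcgagc
Hoxa7 site: agaaaattCCAGGAGATGGCAGtgtggctc
Hoxa9 site: ggcaactgAGAGTAGAGGGCGCccttgcag
Hoxa10 start site: cgcagccgCCACGAGATGGCGCactcccga
Hoxa11-Hoxa13 site: gcttgtcaACACGAGGTGGCGCccttgatc
proximal flank site: atctttccCCACTAGATGTCTTccaagtta
distal flank site: ggcgatcgGCAGTGGGGGGCGCaccaagac

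No CTCF summit of the conservative list lay near Hoxa2, which specifies hindbrain and neural crest identity: its nearest summit was 32640 bp away. The first site of the cluster lay between Hoxa4 and Hoxa5, at chr6:52197352-52197565, 5718 bp upstream of the start of Hoxa4, a gene of cervical axial identity. It had a strength of 255.7, rank 20507 of 42163. In the conservative list the interval before it was long: the next summit on that side lay 151697 bp away, farther than 92.4% of the distances between neighbouring summits. Other deposited lists hold weaker peaks in this interval, as described below. The gap after the last site of the window was longer still, at 184403 bp.

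Hoxa5, which patterns the neck and thorax and acts in lung development, had a strong site at its start. The summit lay 82 bp upstream of the Hoxa5 start by both GENCODE and RefSeq, in a peak at chr6:52204467-52204821, with a strength of 559.7 (rank 2313). By GENCODE M21 this site, the Hoxa4-Hoxa5 site and the Hoxa6-Hoxa7 site also lie in introns of long transcripts of Hoxa3, a gene of pharyngeal organ development, and of Gm28308, and inside the antisense gene Hoxaas3. The 250 bases upstream of the RefSeq start of Hoxa5 (chr6:52204588-52204837, minus strand), from the RefSeq promoter table, show the motif in capitals in a CpG-rich promoter.
Hoxa5 upstream: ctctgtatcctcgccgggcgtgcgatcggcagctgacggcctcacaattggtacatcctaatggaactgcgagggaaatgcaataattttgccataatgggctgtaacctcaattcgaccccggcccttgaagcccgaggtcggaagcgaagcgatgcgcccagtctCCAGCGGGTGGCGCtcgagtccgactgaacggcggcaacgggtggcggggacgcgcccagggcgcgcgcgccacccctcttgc

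Between Hoxa6 and Hoxa7 a site of nearly the same strength followed, at 561.2 (rank 2224). Its peak at chr6:52211566-52211888 had its summit 3008 bp upstream of the start of Hoxa6, a gene of the thoracic axial programme, and 1606 bp into Hoxa3 as GENCODE draws it. The 101 bases centred on its summit (chr6:52211680-52211780, plus strand) are shown because the best match there had 3 mismatches to the consensus, marked in capitals.
Hoxa6-Hoxa7 summit: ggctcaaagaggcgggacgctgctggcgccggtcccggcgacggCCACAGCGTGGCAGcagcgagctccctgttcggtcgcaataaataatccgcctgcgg

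The strongest site of the cluster lay at the upstream end of Hoxa7, another gene of thoracic identity, in a peak at chr6:52221646-52221997 with a strength of 671.6 (rank 3). This rank counts only peaks kept in the conservative list. Of the 100 strongest candidates behind that list 9 were kept, so it is not a rank among all candidates. Whether the Hoxa7 site marks a gene start depends on the annotation. In GENCODE M21 a protein-coding Hoxa7 transcript begins 27 bp before the summit, which then falls in its 5′ untranslated exon. The RefSeq start of Hoxa7 lies 3254 bp downstream of the summit, which is then upstream of the gene.

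The 2 weakest sites lay next to each other in the Hoxa9 and Hoxa10 genes. Hoxa9, a gene of posterior axial and blood stem cell identity, held a peak of 85 bp at chr6:52229584-52229668 with a strength of 103.2 (rank 33428). Its summit was 1492 bp into the GENCODE gene but 2227 bp upstream of the RefSeq start, and 484 bp beyond the end of the microRNA gene Mir196b. The Hoxa10 exon site at chr6:52232446-52232785, with a strength of 93.9 (rank 34867), lay in coding sequence of Hoxa10, a gene of lumbar and reproductive tract patterning.

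These 101 bases centred on the Hoxa10 exon summit (chr6:52232566-52232666, plus strand) are shown because no consensus match with 3 or fewer mismatches lay near it, so no capitals are set.
Hoxa10 exon summit: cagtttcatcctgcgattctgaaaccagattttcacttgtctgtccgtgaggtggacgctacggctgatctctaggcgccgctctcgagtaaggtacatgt
The peak had a width of 340 bp with the summit in its centre. The same width occurred in 26.1% of peaks of the whole list.

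Hoxa10 had a second, much stronger site at its start. Its peak at chr6:52240405-52240723 had a strength of 554.2 (rank 2606). The summit lay 298 bp into the gene from a start given by both GENCODE and RefSeq, in a 5′ untranslated exon. Both annotations also give Hoxa10 a start farther downstream, at chr6:52234939, and the summit lies upstream of that start. Hoxa11, a gene of forearm and uterine development, had no summit of its own. The nearest was that of the Hoxa10 start site, 5254 bp away in the downstream direction.

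Sites at similar strength then ran past the end of the cluster. The Hoxa11-Hoxa13 site at chr6:52256968-52257274 had a strength of 469.9 (rank 8119), 3761 bp from the start of Hoxa13 and beyond its 3′ end, inside the provisional transcript 9530018H14Rik. Hoxa13, which patterns the hand, foot and genital tract, is the last gene of the cluster. The proximal flank site at chr6:52270546-52270873 had a strength of 466.5 (rank 8354), 9824 bp upstream of Hoxa13 and 3101 bp beyond Hottip, a long noncoding RNA gene that acts on the posterior Hoxa genes.

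The distal flank site at chr6:52305929-52306195 had a strength of 441.2 (rank 10007), 45180 bp upstream of Hoxa13. It lay 7438 bp upstream of the homeobox gene Evx1, whose start is outside the window and which was chosen after the positions were seen. At the proximal flank summit (chr6:52270654-52270754, plus strand) the best match, in capitals, again had 3 mismatches.
proximal flank summit: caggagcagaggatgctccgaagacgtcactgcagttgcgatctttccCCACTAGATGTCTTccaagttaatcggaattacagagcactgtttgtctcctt

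**Figure D1:**
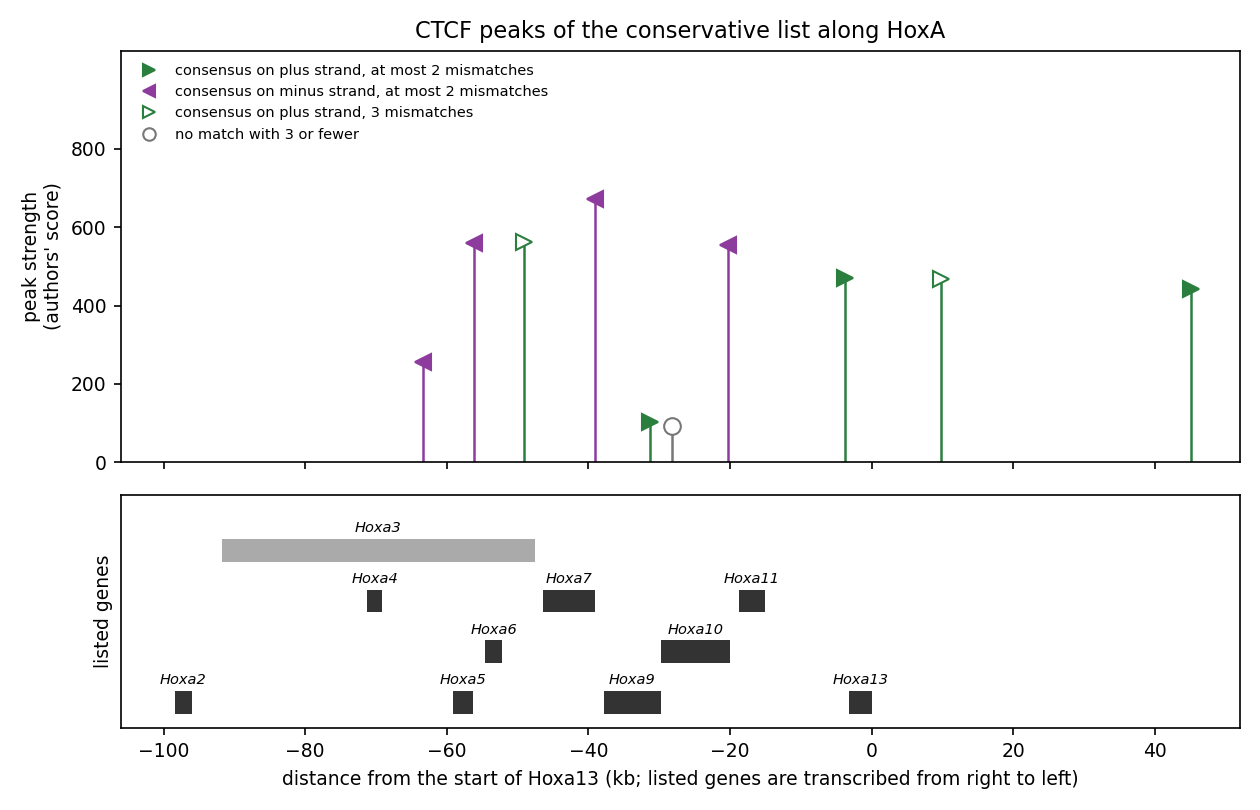
Peak strength (the authors' score) of the 10 sites against distance from the start of Hoxa13 in kb, above the listed genes; arrowheads show the strand of the best consensus match. The Hoxa7 site is highest at 671.6, the Hoxa9 and Hoxa10 exon sites are lowest at 103.2 and 93.9, and no site lies at Hoxa2.

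The HoxA sites were dense and mostly strong. The window held 4.87 summits per 100 kb, against 1.65 over the whole list, and the median distance between neighbouring summits was 7940 bp, against 21399 bp. The median strength was 468.2 (range 93.9 to 671.6), against 245.6 for all peaks. The strongest 10% of the list included 4 of the 10 sites, its strongest 25% 7 and its strongest 50% 8. These are descriptions of 10 sites that share a locus, and no test was made of them.

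Pool E gave a higher strength than pool F at all 10 sites. This direction is not particular to HoxA: over all peaks of the list the median log2 ratio of pool E over pool F was 1.03. The share of all peaks that were higher in pool E was not counted. At the Hoxa7 site the strengths were 375.7 in pool E and 295.8 in pool F, a log2 ratio of 0.35. The Hoxa5 start site had 326.4 in pool E and 233.2 in pool F, and the Hoxa6-Hoxa7 site 328.2 in pool E and 234.7 in pool F, log2 ratios of 0.49 and 0.48. In both pools the Hoxa7 site was thus the highest. The pair around Hoxa6 stood close together, but not apart from the rest: the Hoxa10 start site was near them, at 329.4 in pool E.

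The Hoxa10 start site had 329.4 in pool E and 225.2 in pool F (log2 ratio 0.55). On the posterior side the values were 279.5 in pool E and 190.4 in pool F at the Hoxa11-Hoxa13 site, and 280.7 in pool E and 186.7 in pool F at the proximal flank site (log2 ratios 0.55 and 0.59). The distal flank site had 283.0 in pool E and 159.5 in pool F, a log2 ratio of 0.83. In pool E the last 3 of these sites differed by less than 4 units of strength, while in pool F the distal flank site was the lowest of them.

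The ratio was larger at the weaker sites. At the Hoxa4-Hoxa5 site pool E had 182.0 and pool F 71.9, a log2 ratio of 1.34. At the Hoxa9 site the strengths were 72.5 in pool E and 29.6 in pool F (1.29), and at the Hoxa10 exon site 69.5 in pool E and 24.2 in pool F (1.52). These 3 were the lowest sites in each pool.

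**Figure D2:**
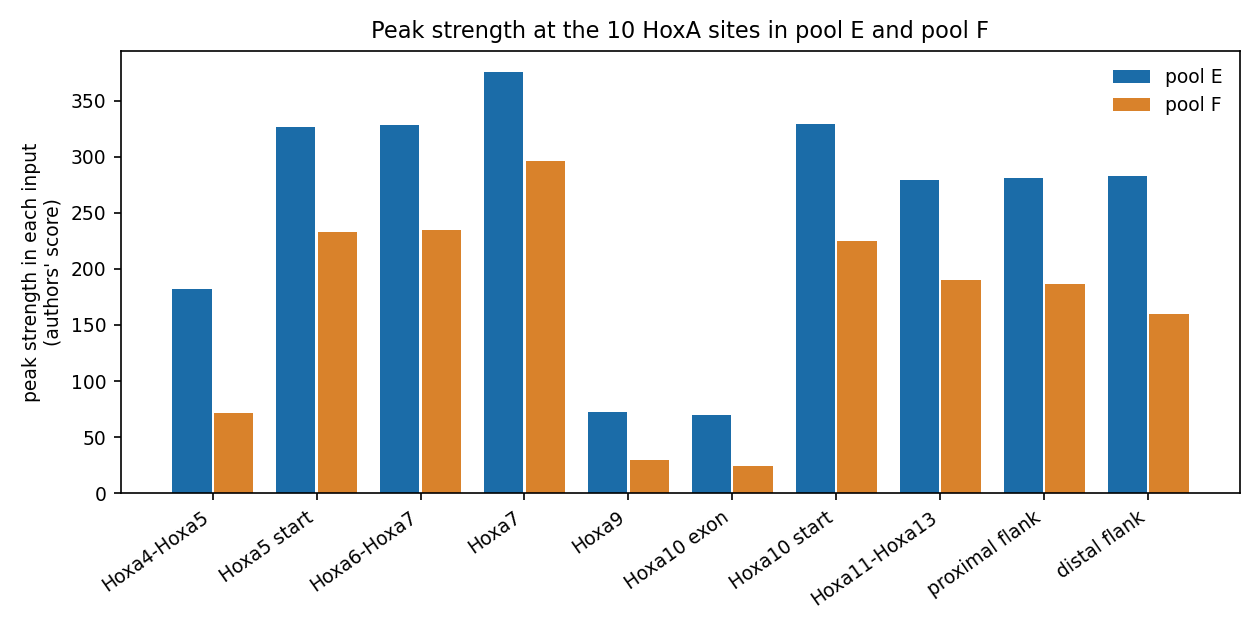
Peak strength (the authors' score) at the 10 sites in pool E and pool F, 1 bar per pool without replicates. Pool E is higher at every site, as it is in the median over the whole list, and the Hoxa9 and Hoxa10 exon sites are lowest in both pools.

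In the whole list, too, the ratio varied with strength. Over the 10 sites the median log2 ratio of pool E over pool F was 0.57, against 1.03 over all peaks of the list. Divided into 10 classes by strength, the list had a median log2 ratio of 0.50 in the strongest class (SD over peaks 0.11) and a highest value of 1.37 in the eighth, which holds the Hoxa9 site (SD 0.37). It was 1.35 in the ninth class, which holds the Hoxa10 exon site, and 1.25 in the weakest. More than 1 SD from their class median were the Hoxa4-Hoxa5 site, at 1.34 against 1.09 (SD 0.21), and the Hoxa7 site, at 0.35 against 0.50. The other 8 sites lay within 1 SD of their class. The scale of each pool's score was not stated, so these ratios carry no test.

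**Figure D3:**
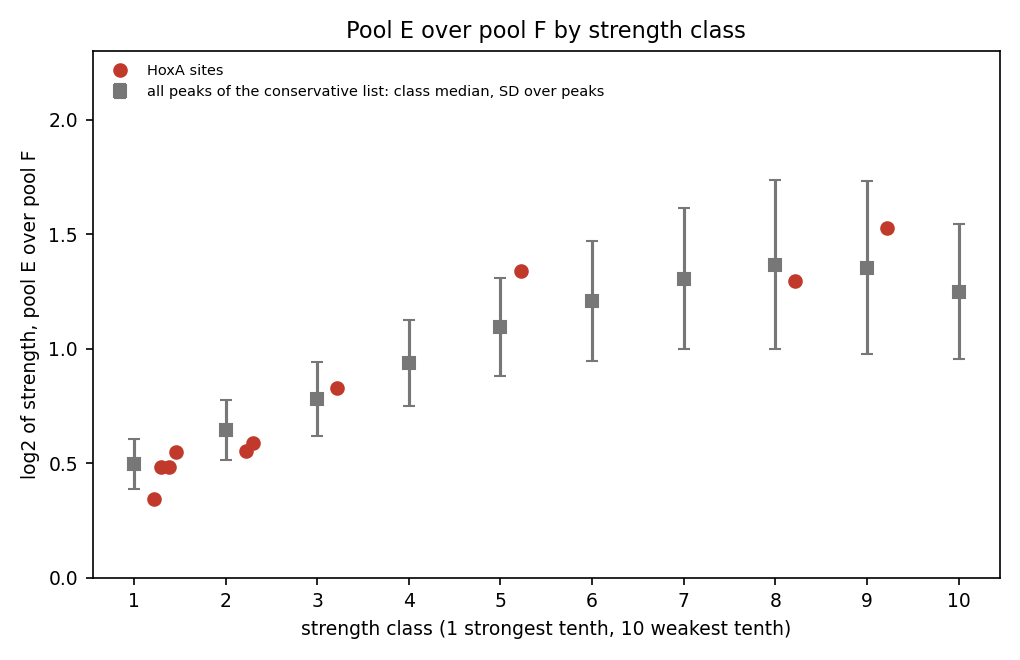
Log2 of peak strength, pool E over pool F, by strength class from the strongest class (1) to the weakest (10); squares are class medians with the SD over peaks, circles the HoxA sites, moved to the right for legibility. The HoxA sites follow the class medians, from 0.35 at the Hoxa7 site to 1.52 at the Hoxa10 exon site.

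The strongest site of the cluster was missing from the pool E list and from the combined list. The irreproducible discovery rate (IDR) compares the order of peaks between a pair of inputs, and peaks at 0.05 or less make up the thresholded lists. Within pool E the Hoxa7 site ranked 109 of 121209 candidates by strength, yet its IDR was 0.239, so it is not in the pool E list. In pool F it ranked 120 of 80114, with an IDR of 0.00999, and was kept.

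Between the pools the Hoxa7 site had an IDR of 0.0182, which placed it in the conservative list, and in the combined list's ranking it had 0.0608, which did not pass. The inputs compared within pool E gave strengths of 181.8 and 194.9. Failing at the top of the ranking was common: of the 100 strongest candidates of each ranking, 5 passed in pool E, 33 in pool F, 2 in the combined ranking and 9 between the pools. Among the 10000 strongest, 84.2% passed in pool E and 97.6% passed in pool F.

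At the other end, the Hoxa9 site passed in pool E with an IDR of 0.00158 and failed in pool F with 0.0735. The remaining 8 sites passed in all 4 rankings, with an IDR of at most 0.00492 in any of them. With a reciprocal overlap of 50%, 8 of the 10 sites had a partner in the pool E list (80%, Wilson 95% interval 49.0 to 94.3), against 87.8% of all peaks of the conservative list. In the pool F list 9 had one (90%, interval 59.6 to 98.2), against 66.2% of all peaks, and in the combined list 9 had one, against 97.4%. The Hoxa9 site did overlap a pool E peak of 182 bp, but its own 85 bp cover less of that peak than the rule requires.

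**Figure D4:**
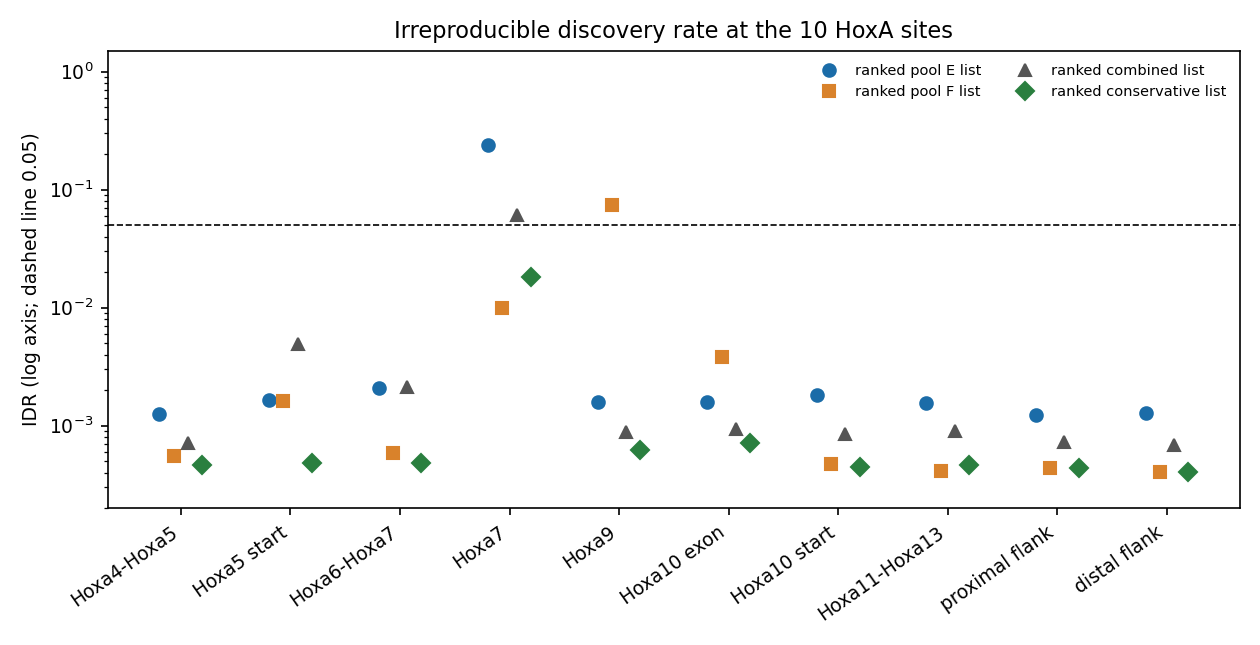
IDR of the 10 sites in the 4 ranked lists on a log axis; the dashed line marks the threshold of 0.05. The Hoxa7 site is above the line in the pool E list (0.239) and the combined list (0.0608), the Hoxa9 site in the pool F list (0.0735), and every other point is below it.

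A CTCF motif was found at most of the sites. A match to the consensus with at most 2 mismatches lay within 50 bp of 7 of the 10 summits (70%, Wilson 95% interval 39.7 to 89.2), against 77.6% of all summits. The Hoxa5 start, Hoxa7 and Hoxa10 start sites had 1 mismatch, the other 4 had 2, and none was exact. Over all summits with a match, the best one had 1 mismatch at 42.4%, 2 at 41.8% and none at 15.7%, so with 7 matches these counts are close to the list's shares. The median distance from motif centre to summit was 5.5 bp, against 6.5 bp over all summits with a match.

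A weight matrix of 20 positions was learned at consensus matches with at most 2 mismatches, near summits outside chromosome 6. It gave a finer scale of similarity to those matches. The median best score of the HoxA sites was 9.65, against 16.1 for all summits, in log2 units. Each of the 10 scored below the median of peaks of its own strength class. The Hoxa7 site scored highest, at 16.2, with 36.0% of its class below it, and the Hoxa10 start and Hoxa5 start sites followed at 15.8 and 15.3.

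Strength and motif score parted most at the sites with 3 mismatches. The matrix was learned from matches with at most 2 mismatches, so low scores at sites with 3 are partly built in. The Hoxa6-Hoxa7 site scored 9.05, above 5.26% of peaks in the strongest class, and the proximal flank site 7.40, above 3.87% of its class. The Hoxa11-Hoxa13 site scored 13.4, the distal flank site 10.1, the Hoxa9 site 9.21, the Hoxa4-Hoxa5 site 7.71 and the Hoxa10 exon site 3.01.

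**Figure D5:**
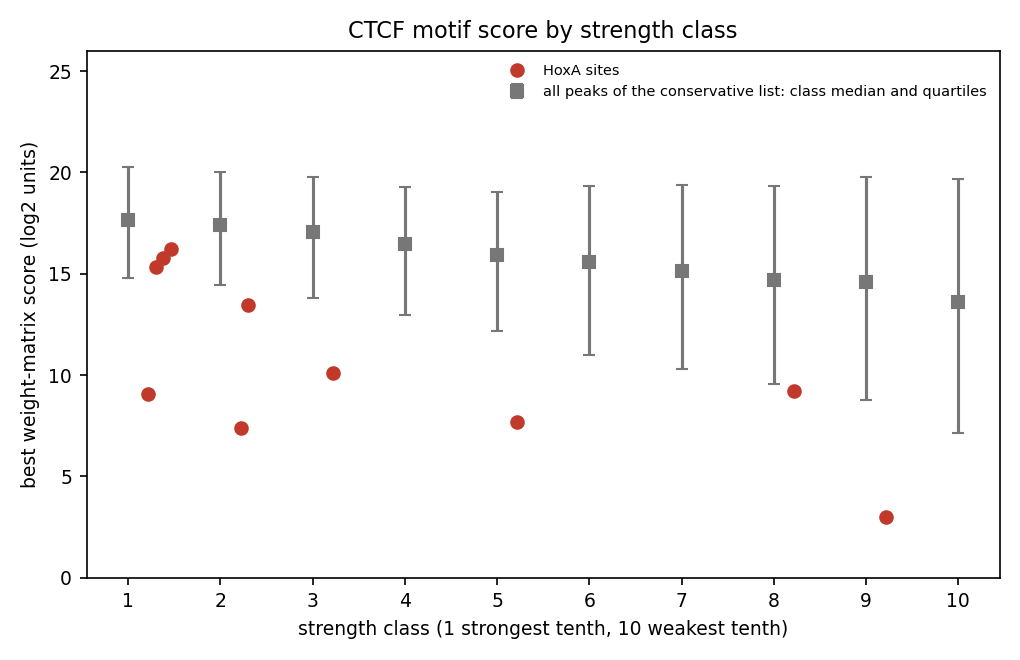
Best weight-matrix score for the CTCF motif (log2 units) by strength class from the strongest class (1) to the weakest (10); squares are class medians with quartiles, circles the HoxA sites, moved to the right for legibility. All 10 circles lie below the median of their class, from 3.01 at the Hoxa10 exon site to 16.2 at the Hoxa7 site.

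Motif direction differed along the cluster. Of the 7 matches with at most 2 mismatches, 3 were on the plus strand, against 49.7% over all summits with a match, and 4 on the minus strand. The minus-strand matches were those of the Hoxa4-Hoxa5, Hoxa5 start, Hoxa7 and Hoxa10 start sites, and the plus-strand ones those of the Hoxa9, Hoxa11-Hoxa13 and distal flank sites. With 3 mismatches allowed, the Hoxa6-Hoxa7 and proximal flank sites were added, both on the plus strand. The weight matrix gave the same strand at all of these and the plus strand at the Hoxa10 exon site, where the score was low. Because the matrix was learned from consensus matches, these strands are not separate evidence. The Hoxa11-Hoxa13 match thus pointed across Hoxa13, and those of the proximal and distal flank sites pointed away from the cluster, toward Evx1.

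A CpG inside the motif matters because methylation there is known to weaken CTCF binding. The Hoxa5 start, Hoxa10 start and Hoxa11-Hoxa13 matches each held 2 CpGs, and those of the Hoxa7 and proximal flank sites held none. Over 301 bases around the summit the HoxA sites had a median of 17.5 CpGs (range 5 to 28), against 4 over all summits, and a median G+C content of 52.3%, against 47.5%. The Hoxa5 start site was the richest, with 28 CpGs, and the Hoxa11-Hoxa13 site the poorest, with 5. None of the 10 summits lay in masked repeat sequence, against 19.7% of all summits. Methylation was not measured here.

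Consensus matches without a site were also present. The window held 6 matches with 1 mismatch and no exact one. The 3 at the Hoxa5 start, Hoxa7 and Hoxa10 start sites carried a summit of the conservative list. Across the genome 24.4% of such matches carried one. Of the other 3, one lay 308 bp into Hoxa11, on the minus strand at chr6:52245495-52245508, with the nearest candidate of the ranked list between the pools 1183.5 bp away. Of 62 matches with 2 mismatches, 4 carried a summit, against 3.29% across the genome.

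Most of the listed genes had a CTCF summit near their start. For 7 of the 10 genes the start had a summit at 5000 bp or less (70%, Wilson 95% interval 39.7 to 89.2), against 37.4% of 21755 protein-coding genes. Hoxa3, Hoxa5, Hoxa6, Hoxa7, Hoxa9, Hoxa10 and Hoxa13 had one, and Hoxa2, Hoxa4 and Hoxa11 did not. The genes share sites, so they are not independent and the interval is not a test against all protein-coding genes. The Hoxa6 start had both the Hoxa5 start site and the Hoxa6-Hoxa7 site within 5000 bp, and the Hoxa9 start both the Hoxa9 site and the Hoxa10 exon site. Within 1000 bp only Hoxa5, Hoxa7 and Hoxa10 had a summit, against 20.6% of protein-coding genes. These counts use GENCODE gene starts, and that of Hoxa9 belongs to a noncoding transcript. From the RefSeq start of Hoxa9, at chr6:52227370, the Hoxa10 exon site is farther than 5000 bp. From the RefSeq start of Hoxa7 the nearest summit is 3254 bp away.

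Weaker candidates filled parts of the window. In the ranked list between the pools 24 candidates had their summit in the window and 10 passed the IDR threshold (41.7%, Wilson 95% interval 24.5 to 61.2), against 41.0% of the whole ranked list. The 10 that passed had strengths of 93.9 or more, and the 14 that failed reached at most 55.0. In the pool E ranking 13 of 35 candidates passed, against 42.0% of that list, in pool F 9 of 16, against 42.2%, and in the combined ranking 12 of 24, against 43.0%.

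Some of these candidates passed only outside the conservative list. The pool E list added 4 peaks. Among them were one 515 bp into Hoxa4 (35.9) and one 1038 bp into Hoxa13 (23.5), whose strengths in pool F were 7.73 and 6.19. The other 2 lay on the Hoxa2 side. The one at chr6:52122627-52122986 had 33.4 in pool E and 18.8 in pool F and lay in masked repeat sequence, and its 1-mismatch match on the plus strand shows the core in capitals. It is closer to the consensus than 7 of the 10 HoxA sites.
Hoxa2-side flank peak: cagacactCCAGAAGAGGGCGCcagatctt
The combined list added 3 peaks, all on the Hoxa2 side, with strengths of 39.1 to 55.0, and the pool F list added none.

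The other Hox clusters, taken with 50 kb to each side, give a scale for these values and were not tested against HoxA. HoxA had 10 summits (4.87 per 100 kb) with a median strength of 468.2. HoxB had 13 (4.75 per 100 kb; median 400.3), HoxC 5 (2.32 per 100 kb; 458.6) and HoxD 10 (5.08 per 100 kb; 375.7). The strongest peak reached 671.6 in HoxA, 559.8 in HoxB, 532.1 in HoxC and 558.6 in HoxD. A consensus match was present at 7 of 10 summits in HoxA, 12 of 13 in HoxB, 3 of 5 in HoxC and 6 of 10 in HoxD. Starts with a summit at 5000 bp or less numbered 7 of 10 listed Hoxa starts, 6 of 10 Hoxb starts, 3 of 9 Hoxc starts and 7 of 9 Hoxd starts.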

How the data were processed

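The deposited peak lists were made on mm10 from the merged technical replicates of pool E and pool F with 1 control alignment, per the notes deposited with each sample; aligner, peak caller and versions are not given in the sources used here. Peak strength is a score the authors deposited, and the IDR was computed back from the −log10 values in the deposited ranked lists. Read depth is unknown. The inputs of the ranked list between the pools were assigned by their matches: 76.2% of first inputs occur in pool E's ranked list and 60.5% of second inputs in pool F's, with none the other way round. Coordinates are 1-based. Genes are from GENCODE M21, and 9 of the 10 listed genes matched the RefSeq promoter table (GRCm38.p6); Hoxa4 did not. The motif was the CTCF consensus of 14 bases, searched on both strands. The weight matrix was chosen after the data were seen. It used 20 positions at 30927 consensus matches with at most 2 mismatches, near summits outside chromosome 6. Ranked candidates matched a site when summits lay within 50 bp. Functions were tested on simulated data. Wilson intervals cover counting error only. All 10 listed genes and every site are named. Members, windows and gene lists were chosen with earlier results of these data known. Python 3.11.15, NumPy 2.4.6 and pandas 2.3.3 were used.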

Additional observations from a re-analysis of the deposited data

How the results depend on the processing

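Of 35 alternative values for the 7 results that are counts, 28 stayed within 1.5 times the main count and 7 did not. The summits in the window and the ranked candidates that passed are the same peaks, so the alternatives they share are counted more than once. The motif count was 7 with 2 mismatches and 3 with 1 mismatch. The number of plus-strand motifs was 3; it was 0 with 1 mismatch, 5 with 3 mismatches, 5 in the pool E list and 6 with the weight matrix, which was added after seeing the data. Partners in the pool F list numbered 9, and 2 with a reciprocal overlap of 80%, where 8 of the 9 pool F peaks are narrower than the site's own. Listed genes with a summit numbered 7 within 5000 bp and 3 within 1000 bp. With an IDR of 0.01, 9 summits remained, without the Hoxa7 site. The window without flanks held 8 summits. Strengths of different lists are on scales that were not stated, so their medians do not bear on stability: the median in the window was 468.2 in the conservative list, 348.4 in the combined list, 182.0 for pool E and 190.4 for pool F. Without flanks it was 512.1, and the median log2 ratio of pool E over pool F was 0.55 in place of 0.57. No paired analysis was possible because every list rests on merged technical replicates, and for the same reason no replicate could be left out. Without read counts, depth sets no stated limit on weak sites.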
